A study of Mus musculus with 2 samples.

Results

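The dorsal root ganglion (DRG) is the cluster of sensory neuron cell bodies beside the spinal cord, and it holds immune cells. The 46 genes described here serve the copying of DNA and cell division. Their transcripts were measured, and neither DNA content nor division was. Where a cell had arisen or divided was not measured either. Of the 46 genes, 25 belong to S phase, 20 to G2 and mitosis, and Stmn1, which encodes the microtubule regulator stathmin, stands in neither list. All 46 were listed by name, without a limit on their values, and were found among the 16819 genes of the filtered count matrix. The cells were DAPI-, CD45+ immune cells sorted from pooled DRGs of naive, wild-type BALB/cAnNRj mice and captured in 1 lane with 1 antibody hashtag per mouse. The deposited cells carried the hashtags of the 3 male mice, with 481, 772 and 1415 cells for mouse 1, mouse 2 and mouse 3 and a median of 8284 UMIs (unique molecules counted) per cell. Cells that carried the hashtags of 3 female mice were held in a larger, unfiltered matrix and are given apart.

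A cell that commits to division first loads the MCM helicase on its origins of replication, a step that needs Cdc6 and Cdt1, and E2F transcription factors switch on the enzymes that make nucleotides and DNA. After S phase a second set of genes is driven through the MuvB complex with B-Myb and FoxM1. This set supplies cyclin B, Cdk1, the aurora and polo kinases, the kinetochore and the spindle. Tissue macrophages can renew themselves by such divisions, neutrophils lose the ability to divide as they fill with granules in the bone marrow, and B cell precursors alternate bursts of division with rearrangement of their antibody genes.

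Short motifs linked to these programmes can be searched for in the DNA before the start of the genes. The promoters of 5 genes are shown because 2 come from the S phase list (Mcm5 and Mcm6, helicase subunits) and 3 from the mitotic list (Top2a, the topoisomerase that untangles sister chromatids, Cdk1, the mitotic kinase, and Ube2c, an enzyme of the anaphase-promoting complex). Each is the 150 bases before the RefSeq start on build GRCm38.p6, read 5′ to 3′ on the strand of the gene. Capitals mark an E2F motif (TTTCCCGC, TTTGGCGC, TTTCGCGC or TTTGCCGC), a cell cycle homology region or CHR (TTTGAA or TTCGAA), or a CCAAT box, on either strand, and motifs that overlap run together. Where a motif crosses the edge of the 150 bases, only its letters inside are shown, as with the leading C of Mcm5. The windows are chr8:75109359-75109508 on the plus strand for Mcm5, chr1:128359706-128359855 on the minus strand for Mcm6, chr11:99024190-99024339 on the minus strand for Top2a, chr10:69352913-69353062 on the minus strand for Cdk1 and chr2:164769779-164769928 on the plus strand for Ube2c.
Mcm5: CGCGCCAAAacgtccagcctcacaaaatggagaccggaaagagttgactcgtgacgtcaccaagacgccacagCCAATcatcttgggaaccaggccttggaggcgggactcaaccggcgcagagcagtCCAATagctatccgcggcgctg
Mcm6: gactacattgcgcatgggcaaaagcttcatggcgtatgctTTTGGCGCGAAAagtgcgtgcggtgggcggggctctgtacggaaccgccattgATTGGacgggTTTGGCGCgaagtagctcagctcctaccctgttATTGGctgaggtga
Top2a: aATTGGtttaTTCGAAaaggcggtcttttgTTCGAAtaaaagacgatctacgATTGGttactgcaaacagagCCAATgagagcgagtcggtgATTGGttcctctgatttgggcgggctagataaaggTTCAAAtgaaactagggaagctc
Cdk1: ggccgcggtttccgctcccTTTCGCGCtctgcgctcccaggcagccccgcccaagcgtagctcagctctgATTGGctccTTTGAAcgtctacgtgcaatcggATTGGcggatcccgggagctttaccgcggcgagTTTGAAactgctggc
Ube2c: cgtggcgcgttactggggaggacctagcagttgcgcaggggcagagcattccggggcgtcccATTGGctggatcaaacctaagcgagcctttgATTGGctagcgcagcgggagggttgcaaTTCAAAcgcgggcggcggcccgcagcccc

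Over the full RefSeq windows of 300 bases, 22 of the 25 S phase genes and 17 of the 20 mitotic genes were matched. An E2F motif was present in 8 of 22 S phase promoters (36.4%), in 1 of 17 mitotic promoters (5.88%) and in 2.32% of all 27025 promoters. Most S phase promoters thus had no match. The Mcm5 and Mcm6 promoters shown are among the 8, and the Cdk1 promoter shown is the 1 mitotic promoter. A CHR and a CCAAT box stood together in 13 of 17 mitotic promoters (76.5%), in 3 of 22 S phase promoters (13.6%) and in 7.70% of all promoters. The CCAAT box alone was common in both lists, with 12 S phase promoters (54.5%) and 15 mitotic promoters (88.2%) against 37.9% of all. These are matches of letters, and binding was not measured.

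Cell types were set from markers that are not cell cycle genes. Complement C1q transcripts at 0.5% of UMIs or more gave 1484 macrophages, S100a8 and S100a9 at 1% or more gave 573 neutrophil-lineage cells, 4 or more UMIs of Cd79a and Cd79b gave 161 B cells, 2 or more UMIs of Cd3d, Cd3e and Cd3g gave 76 T cells, and 374 cells met no rule. Csf1r, the receptor for macrophage growth factor, was detected in 98.9% of macrophages, Retnlg in 90.4% of neutrophil-lineage cells, Ighm in 100% of B cells and Trbc2 in 94.7% of T cells. Trac was detected in 50% of the T cells and Trdc in 36.8%, and 30 of the 76 also held at least 4 UMIs of the natural killer list (Ncr1, Klrb1c, Gzma and Nkg7) and 38 of the monocyte list (Ly6c2, Plac8, Ccr2 and S100a4), so the T class is called by its Cd3 rule. A cell that met several rules, as 330 did, was given the first type in the order above. Of these, 283 met the neutrophil and T rules through Cd3d alone, for Cd3e and Trac had no UMI in neutrophil-lineage cells.

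To find cells that express a list as a programme, a cell was called S-gene-high when 5 or more of the 25 S phase genes had a UMI and together made up at least 0.25% of its UMIs, and mitotic-gene-high when 5 or more of the 20 mitotic genes did so at 0.2% or more. In all, 176 cells passed at least 1 limit. Of these, 52 were high for S phase genes alone, 67 for both lists and 57 for mitotic genes alone. These classes are cut from a continuous range. Within 20% of the S phase limit lay 12 macrophages, 15 neutrophil-lineage cells and 2 B cells, and within 20% of the mitotic limit lay 1, 5 and 2.

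**Figure D1:**
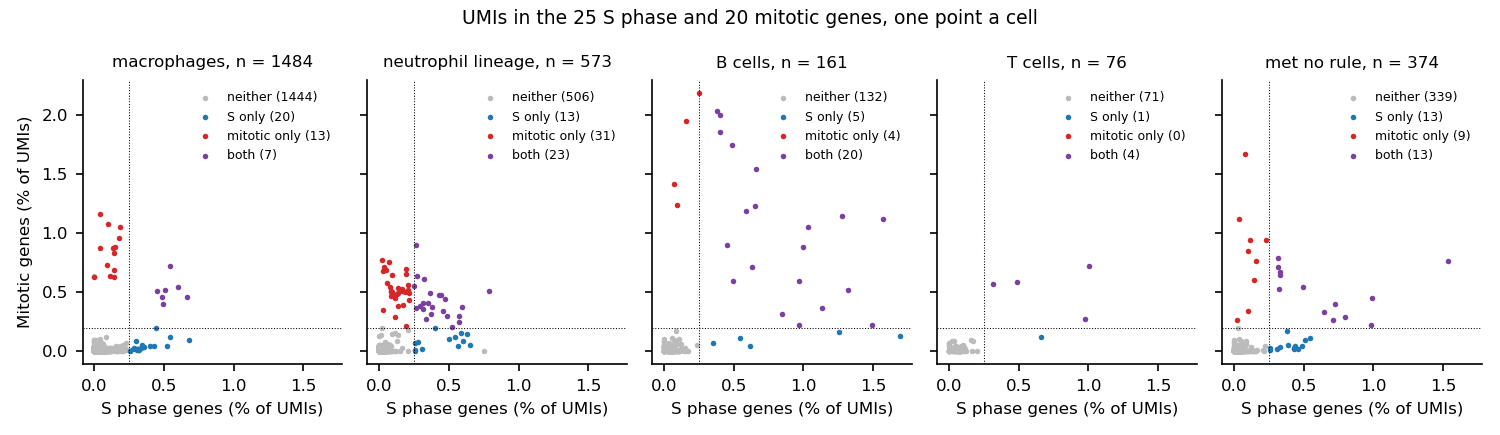
Each point is 1 cell, with the percentage of its UMIs in the 25 S phase genes on the x axis and in the 20 mitotic genes on the y axis, in 1 panel per cell type, and lines mark the limits of 0.25% and 0.2%. Macrophages lie mostly near the origin, whereas B cells and neutrophil-lineage cells hold clouds high on both axes.

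Genes outside both lists sorted with these classes, which pool all cell types. Macrophages made up 20 of the 52 cells high for S phase genes alone, 7 of the 67 high for both and 13 of the 57 high for mitotic genes alone. The part of cell type in the differences between classes was not tested. Stmn1, which was not used to set them, was detected in 100% of cells high for S phase genes alone, 100% of those high for both, 96.5% of those high for mitotic genes alone and 16.8% of the other cells. Its level in mice 1, 2 and 3 was 873, 1380 and 845 CPM (UMIs per 1000000 UMIs of the cells summed) in the first class, 1636, 1412 and 1804 in the second, 564, 442 and 891 in the third and 32.4, 28.1 and 42.6 in cells high for neither list. Values of cells high for S phase genes alone and for mitotic genes alone overlapped, cells high for both lists lay above them, and the remaining cells lay far below in every mouse.

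Further replication genes not among the 46, such as the DNA polymerase and clamp-loader subunits, stood at 2174, 2606 and 2198 CPM in S phase-only cells and at 834, 754 and 863 in mitotic-only cells of the 3 mice. Further mitotic genes, such as the condensin and kinetochore subunits, were in the opposite order, with 1066, 1060 and 888 in S phase-only cells and 4648, 5164 and 4390 in mitotic-only cells. Cells high for both lists carried both sets, at 2939, 2636 and 2666 for replication and 4879, 3980 and 4420 for mitosis. Both sets separated the S phase-only from the mitotic-only class in every mouse. The linker histone gene Hist1h1b, whose message is made as DNA is copied, peaked in cells high for both lists with 481, 287 and 347 CPM, against 22.8, 66.2 and 26.6 in S phase-only cells, 71.4, 60.3 and 79.8 in mitotic-only cells and 2.47, 1.69 and 1.40 in the rest. Cdc20, the activator of the anaphase-promoting complex, was highest in mitotic-only cells, with 301, 613 and 279 against 148, 106 and 125 in cells high for both.

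Individual members were unevenly spread over the classes, which they helped to define, and these values are therefore given as a description. Mcm6 had a UMI in 100% of S phase-only cells, 91% of those high for both, 19.3% of mitotic-only cells and 5.86% of the rest. E2f1, the transcription factor that opens S phase, went from 84.6% to 49.3% and 12.3%, with 7.34% in the rest. The classes pool cell types, and E2f1 had a UMI in 11.1% of macrophages high for neither list against 0.791% of such neutrophil-lineage cells. The part of cell type in this order was not tested. Pclaf, the PCNA-bound factor, was present in 75% of S phase-only cells but in 100% of those high for both and 96.5% of mitotic-only cells. Its place in the S phase list thus did not follow that of the helicase genes. Plk1, the polo kinase, went the other way, with 3.85%, 59.7% and 77.2%, and Ccnb1, cyclin B, with 9.62%, 55.2% and 87.7%. Top2a, which stands in the mitotic list, was already present in 73.1% of the S phase-only cells.

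Every one of the 4 named types held S-gene-high and mitotic-gene-high cells, at very different shares. Among macrophages, 20 cells were high for S phase genes alone, 7 for both and 13 for mitotic genes alone, 40 of 1484 in all. In the neutrophil lineage these numbers were 13, 23 and 31 of 573 cells, among B cells 5, 20 and 4 of 161, and among T cells 1, 4 and 0 of 76. Of the 374 cells that met no rule, 13, 13 and 9 were high.

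S-gene-high cells made up 1.64, 0.385 and 2.81% of macrophages in mice 1, 2 and 3, a mean of 1.61% ± 1.21 (SD, n = 3 mice). In the neutrophil lineage they made up 7.97, 5.10 and 5.93%, a mean of 6.34% ± 1.48. The B cells were highest, with 13.3, 12.2 and 18.7%, a mean of 14.7% ± 3.45. In neutrophil-lineage and B cells every mouse lay above every macrophage value. T cells gave 7.41, 0 and 8.11%, and the 0 rests on only 12 T cells in mouse 2.

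Mitotic-gene-high cells made up 1.64, 0.193 and 2.05% of macrophages (1.29% ± 0.974), 13.0, 9.18 and 8.01% of the neutrophil lineage (10.1% ± 2.63), 17.8, 9.76 and 16.0% of B cells (14.5% ± 4.21) and 3.70, 0 and 8.11% of T cells (3.94% ± 4.06). Here too the neutrophil-lineage and B cell values lay above those of macrophages in 3 of 3 mice, while neutrophil-lineage and B cells overlapped each other. An exact permutation test, two-sided, gave p = 0.1 for neutrophil-lineage and B cells against macrophages for either list, which is the smallest p that 3 mice against 3 allow, and p = 0.4 for T cells. Adjusted over the 6 comparisons, which share the macrophage values, these became 0.15 and 0.4. This test thus cannot pass a threshold of 0.05 on these shares. All types came from the same mice, and a paired exact sign-flip test, added after seeing the data, gave p = 0.25, the smallest that 3 mice allow, for neutrophil-lineage and B cells and p = 0.5 for T cells.

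**Figure D2:**
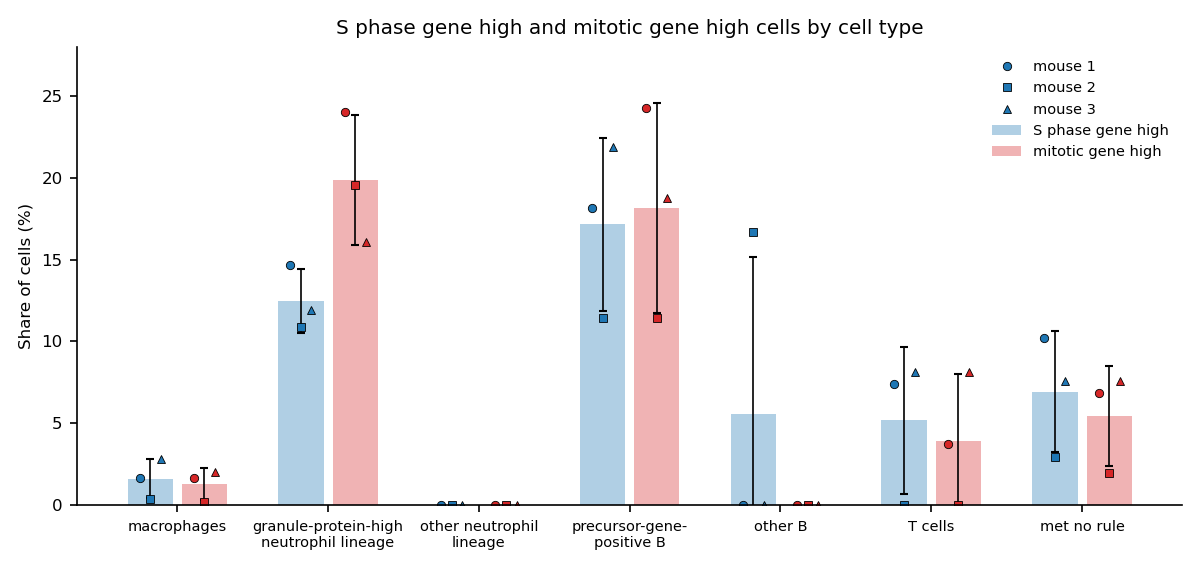
The y axis gives the percentage of cells that were S-gene-high or mitotic-gene-high in each cell type and subset, with bars for the mean, error bars of 1 SD (n = 3 mice) and 1 point per mouse. Granule-protein-high neutrophil-lineage cells and precursor-gene-positive B cells carry the high shares, the other neutrophil-lineage cells sit at 0 in all 3 mice, and the bar of other B cells rests on 1 of 6 cells in mouse 2.

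In the neutrophil lineage all 67 high cells were granule-protein-high, a class set by at least 4 UMIs of the primary granule genes Mpo, Elane, Prtn3, Ctsg and Ms4a3 or at least 1% of UMIs in the later granule genes Ltf, Camp, Ngp, Chil3 and Fcnb. Of these 289 cells, 14.7, 10.9 and 11.9% were S-gene-high and 24.0, 19.6 and 16.1% mitotic-gene-high in the 3 mice. None of the 284 other neutrophil-lineage cells was high, which allows a share of up to 1.06%. The subset with primary granule messages, which are made early in neutrophil development, comprised 39 cells, and 32 of them were high (82.1%, exact Clopper-Pearson 95% interval 66.5 to 92.5%). Among the remaining 250 granule-protein-high cells 35 were high (14.0%, 9.95 to 18.9%). The primary granule subset was high in 9 of 12, 8 of 9 and 15 of 18 cells of the 3 mice. These intervals cover counting error only. The primary granule subset was also deeper, with a median of 19884 UMIs against 10902 in the other 250 cells, and the part of depth in this contrast was not tested.

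Among B cells the high cells lay with the precursor genes, namely the surrogate light chain genes Vpreb1, Vpreb2, Vpreb3 and Igll1, the recombinase genes Rag1 and Rag2, and Dntt. Of 132 B cells with at least 2 UMIs of these genes, 28 were high and 20 (15.2%) were high for both lists. S-gene-high cells made up 18.2, 11.4 and 21.9% of them and mitotic-gene-high cells 24.2, 11.4 and 18.8%. Of the 29 other B cells 1 was high, for S phase genes in mouse 2, and none for mitotic genes, which with so few cells allows a share of up to 10.3%.

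Among macrophages, 6 of 183 in mouse 1 (3.28%), 3 of 519 in mouse 2 (0.578%) and 31 of 782 in mouse 3 (3.96%) were high for a list, so that mouse 2 stood below the other two. All 7 that were high for both lists came from mouse 3. Fcrls and Ccr2 mark the main macrophage subsets that the study describes. Of 678 macrophages with Fcrls and no Ccr2, 13 were S-gene-high and 8 mitotic-gene-high. Of 583 with both, 13 and 11 were. Of 156 with Ccr2 and no Fcrls, none was S-gene-high, which allows up to 1.92%, and 1 was mitotic-gene-high. A single UMI set these groups, and 22 of the 583 cells with both genes were high for a list. Cells with both genes had a median of 9080 UMIs against 8000 in those with Ccr2 alone, and the part of depth in this split was not tested. The cells with Ccr2 alone thus do not stand for the Ccr2 subset of the study.

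The 374 cells that met no type rule held 35 high cells. At least 4 UMIs of the monocyte list were present in 32 of them and in 245 of the 339 remaining cells of this class. Primary granule genes reached 4 UMIs in 23 of the 35 and in 17 of the 339. The B list reached 4 UMIs in 21 of the 35 and in 38 of the 339, the neutrophil list in 16 and 85, the macrophage list in 10 and 102, the dendritic cell list in 8 and 95, the natural killer list in 6 and 28 and the progenitor list in 5 and 25. The T, basophil or mast cell and endothelial lists did so in 1 high cell each, and the fibroblast, erythroid and glial lists in 0. Reaching 4 UMIs does not by itself mark a type. Of the 1484 macrophages 421 did so for the B list and 291 for the neutrophil list. By level, the 35 high cells held 222 CPM of the B list and 184 of the neutrophil list, against 291 and 341 in macrophages. The 35 high cells were also deeper, and the part of depth in these counts was not tested.

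High cells were deep cells. Macrophages high for S phase genes alone, for both lists and for mitotic genes alone had a median of 18428, 24051 and 22583 UMIs against 8540 for the others, and neutrophil-lineage cells 18582, 19129 and 23887 against 5419. The part of depth in the calls was tested by thinning each cell to 2000 UMIs, which left out 98 shallower cells. Then 2.48% of macrophages, 10.9% of neutrophil-lineage cells, 19.9% of B cells and 8.11% of T cells were high for either list, with 0 of 250 in the neutrophil-lineage cells that were not granule-protein-high. Depth also bears on the deposited filter, which keeps cells with under 5000 genes. Of the 19 cells with a male hashtag that this limit removed, 17 were high for a list, among them 8 of 8 macrophages, 7 of them mitotic-gene-high. With these cells included, 27 of 1492 macrophages (1.81%) were mitotic-gene-high, against 20 of 1484 (1.35%) without them.

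The share of the members' UMIs that lay in the high cells is a description, since those cells were chosen for these UMIs and the share moves with the limits. In macrophages the high cells, 2.70% of the type, held 39.0% of the S phase UMIs and 71.4% of the mitotic UMIs. In the neutrophil lineage they held 87.1% and 94.4%, and in B cells 92.6% and 97.5%. For single S phase genes in macrophages this share ranged from 16.3% for Slbp, the histone stem-loop binding protein, to 92.7% for Pclaf, and it was under 50% for 16 of the 25. For the mitotic genes it ranged from 22.9% for Cenpa, the centromeric histone, to 99.0% for Hmmr, and it was under 50% for Cenpa alone.

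**Figure D3:**
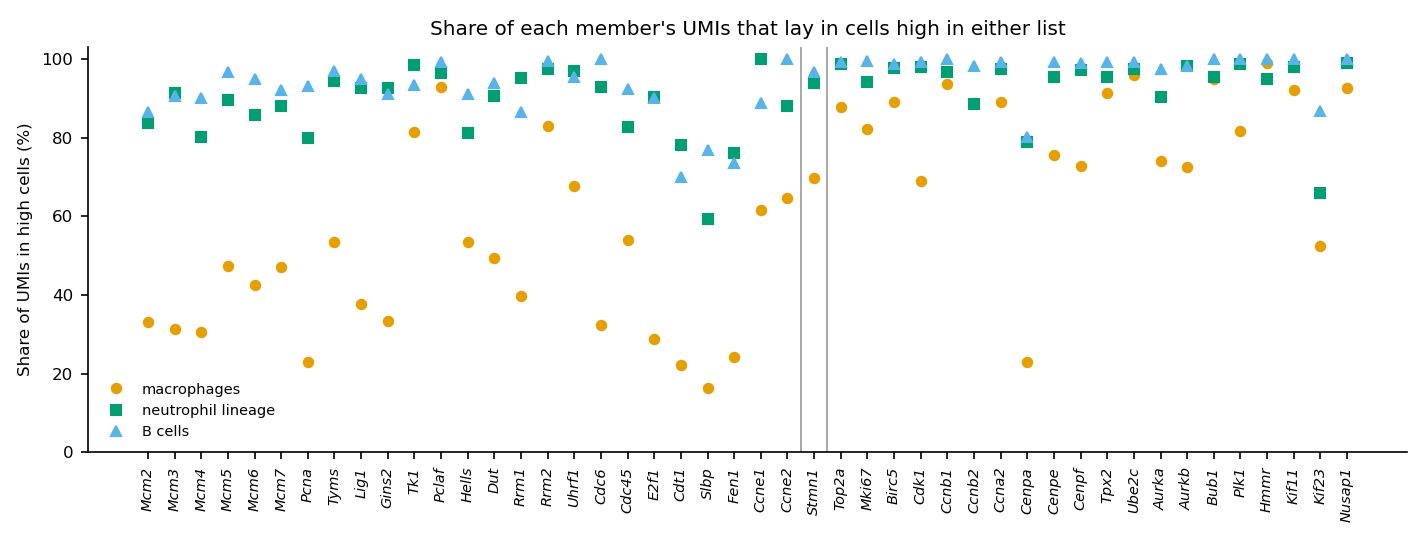
Genes stand on the x axis, and the y axis gives the percentage of a gene's UMIs within macrophages, neutrophil-lineage cells or B cells (1 point each) that lay in cells high for either list. In macrophages the S phase genes spread from 16.3 to 92.7%, and the mitotic genes from 22.9% for Cenpa to 99.0%.

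S phase genes were thus found in many macrophages that did not pass a limit, which was not particular to macrophages. In cells high for neither list these genes made up 0.0320% of UMIs in macrophages and 0.0159% in the neutrophil lineage. The share was 0.0451% in such B cells and 0.0580% in such T cells. Pcna, the sliding clamp of DNA polymerase, had a UMI in 25.3% of macrophages that were high for neither list and in 4.15% of such neutrophil-lineage cells. Slbp had one in 44.6% of those macrophages and 33.4% of those neutrophil-lineage cells, and Cenpa in 33.0% and 13.6%. By contrast Top2a was present in 3.81% and 1.98%. The level that free RNA in the droplets can give was not measured. For comparison, the same genes were read in the 284 neutrophil-lineage cells low in granule proteins, whose median depth was 3353 UMIs against 8622 in macrophages. Pcna had a UMI in 3.17% of them against 26.9% of all macrophages, Top2a in 1.76% against 5.93%, Mki67 in 0.704% against 4.65% and Stmn1 in 1.76% against 21.8%. Mcm3 had no UMI in any of them and was present in 14.0% of macrophages.

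**Figure D4:**
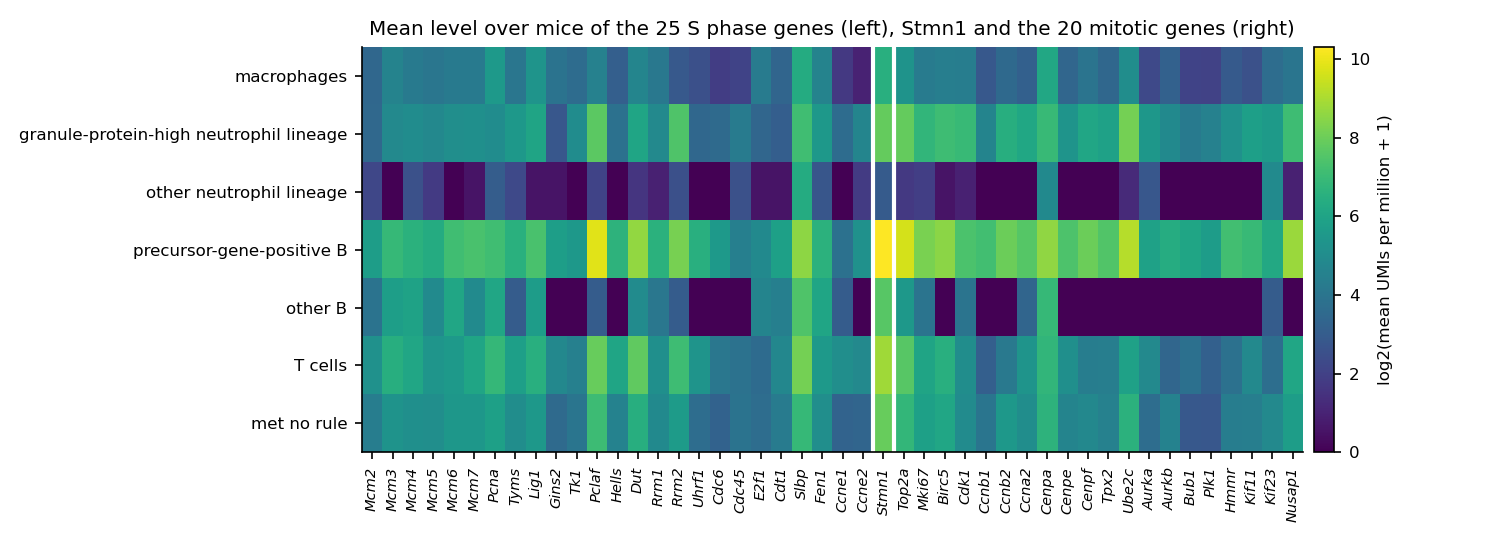
The heat map gives the mean level over mice of each of the 46 genes (columns) in each cell type or subset (rows) as log2 of CPM plus 1, from dark for 0 to yellow for the highest. Precursor-gene-positive B cells are the brightest row, the other neutrophil-lineage and other B cells are dark for most mitotic genes, and Slbp and Cenpa show colour in every row.

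The genes that dominated each list differed between types. By UMIs, Slbp, Lig1 and Pcna led the S phase list in macrophages (1082, 601 and 599 UMIs), whereas Pclaf, Rrm2 and Slbp led it in the neutrophil lineage (754, 638 and 611) and Pclaf, Slbp and Dut in B cells (651, 281 and 275) and T cells (129, 127 and 110). The mitotic list was led by Cenpa, Top2a and Ube2c in macrophages (922, 579 and 414), by Ube2c, Top2a and Nusap1 in the neutrophil lineage (1036, 899 and 522), by Top2a, Ube2c and Nusap1 in B cells (580, 397 and 315) and by Top2a, Birc5 and Cenpa in T cells (104, 48 and 39). Rrm2 and Dut serve the supply of nucleotides, Lig1 seals nicks in new DNA, Nusap1 binds spindle microtubules and Birc5 is survivin, a subunit of the chromosomal passenger complex.

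To compare the types gene by gene, UMIs were summed per mouse and type and all genes were tested with the edgeR quasi-likelihood test (adjusted p under 0.05). The 3 comparisons against macrophages share the macrophage sums and are set side by side. Since a gene could pass the filter on low counts through the type where it is high, the counts of members called are a description. Without that filter 41 of the 46 members were called in the neutrophil lineage, 40 of them higher. In that fit 6885 of 16192 genes were called, 2897 of them higher. In sums, fewer cells that express a gene and less of it per cell cannot be told apart. For the neutrophil lineage 45 of the 46 members were tested, Ccne1 being too low, and 38 were called, all higher than in macrophages. Among all 6676 genes tested 32.1% were called higher and 35.4% lower. The called members were 17 S phase genes, all 20 mitotic genes and Stmn1. Their lists' median log2 fold changes were 1.12 for S phase and 2.85 for mitosis, against -0.084 for all genes.

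Rrm2, the small subunit of ribonucleotide reductase, stood at 175, 139 and 111 CPM in the neutrophil lineage and 5.44, 0.774 and 12.7 in macrophages of mice 1, 2 and 3, a log2 fold change of 4.82 ± 0.47 (SE, adjusted p = 1.86e-08). Ccne2, the cyclin E that starts S phase, was higher by 4.61 ± 0.60, Pclaf by 3.39 ± 0.49, the helicase cofactor Cdc45 by 2.83 ± 0.41 and the origin factor Cdc6 by 2.27 ± 0.49. Among the MCM helicase genes Mcm4 was higher by 1.20 ± 0.23, Mcm5 by 1.05 ± 0.33, Mcm6 by 1.11 ± 0.34 and Mcm7 by 1.15 ± 0.36, whereas Mcm2 (0.56 ± 0.43) and Mcm3 (0.46 ± 0.34) did not pass. Pcna did not pass either, at 31.5, 22.6 and 23.8 CPM in the neutrophil lineage against 51.9, 36.6 and 47.1 in macrophages (log2 fold change -0.17 ± 0.22, adjusted p = 0.511). On the CPM scale these neutrophil-lineage values all lay below those of macrophages. Gins2, Uhrf1, E2f1 and Cdt1 were the other S phase genes that were tested and not called.

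The calls of some of these genes hung on the scaling. With library size in place of TMM factors, the median of all genes moved to -0.72 and 1272 of 4968 calls were higher, against 2142 of 4503 with TMM. In that fit 30 members were called higher and 3, which had been negative and not called, were called lower, namely Pcna (-0.81 ± 0.23), E2f1 (-1.18 ± 0.42) and Gins2 (-1.47 ± 0.51). The 20 mitotic genes kept their call. The S phase genes called higher fell from 17 to 10, with Mcm5, Mcm6, Mcm7, Lig1, Rrm1, Fen1 and Hells losing theirs, as did Stmn1 (0.98 ± 0.47). 

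Of the mitotic genes, aurora kinase A, Aurka, stood at 57.1, 27.1 and 22.5 CPM in the neutrophil lineage and 6.04, 0.774 and 4.70 in macrophages (3.81 ± 0.48, adjusted p = 6.35e-07). The spindle motor Kif11 was higher by 3.61 ± 0.35, Ube2c by 3.50 ± 0.61, Nusap1 by 3.41 ± 0.51 and cyclin A, Ccna2, by 3.34 ± 0.42. Top2a, at 282, 122 and 158 against 47.7, 4.38 and 61.4, was higher by 2.92 ± 0.57, and Mki67, the Ki-67 antigen, by 2.71 ± 0.44. Stmn1, at 215, 166 and 170 against 75.5, 33.5 and 161, was higher by 1.61 ± 0.45 (adjusted p = 0.00335), though mouse 3's macrophages nearly reached the lowest neutrophil-lineage value. Mouse 2, which had the fewest high macrophages, was the lowest macrophage sum for Rrm2, Aurka, Top2a and Stmn1.

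In B cells against macrophages 42 of 45 members tested were called, all higher, where 24.4% of all genes were called higher and 31% lower. They were 21 S phase genes, all 20 mitotic genes and Stmn1, and Gins2, Tk1 and E2f1 were not called. The median log2 fold change was 1.73 for S phase and 3.40 for mitotic genes, against -0.075 for all genes. Here the helicase genes passed without exception, from Mcm3 (1.53 ± 0.37) and Mcm2 (1.58 ± 0.48) through Mcm5 (1.60 ± 0.38), Mcm4 (1.73 ± 0.27) and Mcm6 (2.11 ± 0.37) to Mcm7 (2.33 ± 0.38). Pcna, at 107, 142 and 142 CPM, was higher by 0.91 ± 0.23 (adjusted p = 0.00226).

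The largest S phase differences in B cells were those of Rrm2 (4.47 ± 0.51), Pclaf (4.46 ± 0.51), Ccne2 (4.17 ± 0.80), Uhrf1 (3.38 ± 0.55), which carries DNA methylation through replication, and Cdc6 (3.15 ± 0.55). The largest mitotic ones were those of Nusap1 (3.97 ± 0.53), Ccna2 (3.85 ± 0.46), Ccnb1 (3.83 ± 0.51), Ccnb2 (3.74 ± 0.43) and Bub1 (3.72 ± 0.61), a kinase of the spindle checkpoint. Top2a reached 913, 352 and 807 CPM (3.59 ± 0.58), Mki67 378, 161 and 244 (3.15 ± 0.46) and Stmn1 1168, 896 and 1292 (2.99 ± 0.46). In B cells all 3 mice lay above all 3 macrophage sums for these genes. The range between mice within B cells still exceeded a factor of 2 for Top2a and Mki67, with mouse 2 lowest for both.

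In T cells against macrophages 19 of 45 members tested were called higher and none lower, where 16.8% of all genes were higher and 24.9% lower. They were 14 S phase genes, 4 mitotic (Top2a, Kif11, Birc5 and Ccna2) and Stmn1 (1.92 ± 0.49). The 4 of 20 mitotic genes lay near the share of all genes called higher. The medians were 1.50 for S phase and 1.02 for mitotic genes, against -0.074 for all genes. Log2 fold changes of the tested S phase genes ranged from -0.947 to 4.10. Of the 909 S phase UMIs in T cells 709 lay in the 5 high cells, and 223 lay in 1 cell of mouse 1, so these calls rest on few cells. Rrm2 was higher by 3.81 ± 0.65, Dut, which removes dUTP, by 2.74 ± 0.43 and the chromatin remodeller Hells by 2.48 ± 0.54. Pcna was higher by 0.97 ± 0.28, Mcm2 by 1.62 ± 0.61, Mcm3 by 1.52 ± 0.45, Mcm4 by 1.48 ± 0.35 and Mcm7 by 1.60 ± 0.53, and Mcm5 (0.97 ± 0.55) and Mcm6 (0.88 ± 0.58) did not pass.

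Mitotic genes in T cells also rested on few cells. Top2a stood at 448, 0 and 143 CPM (2.07 ± 0.69, adjusted p = 0.0215) and Mki67 at 66.6, 0 and 124 (1.58 ± 0.71, adjusted p = 0.0822), which passed with the mouse as a block (adjusted p = 0.0390). Kif11 (1.97 ± 0.75), Birc5 (1.88 ± 0.65) and Ccna2 (2.09 ± 0.80) were the other mitotic genes called. Mouse 2, with 12 T cells, had no UMI of Top2a or Mki67. Without mouse 1 only 5 of 42 members tested were called in T cells, all higher. In that fit 779 of all 6841 genes tested were called higher, so the 5 lay near the share of all genes. Whether T cells differ from B or neutrophil-lineage cells in these genes was not tested.

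**Figure D5:**
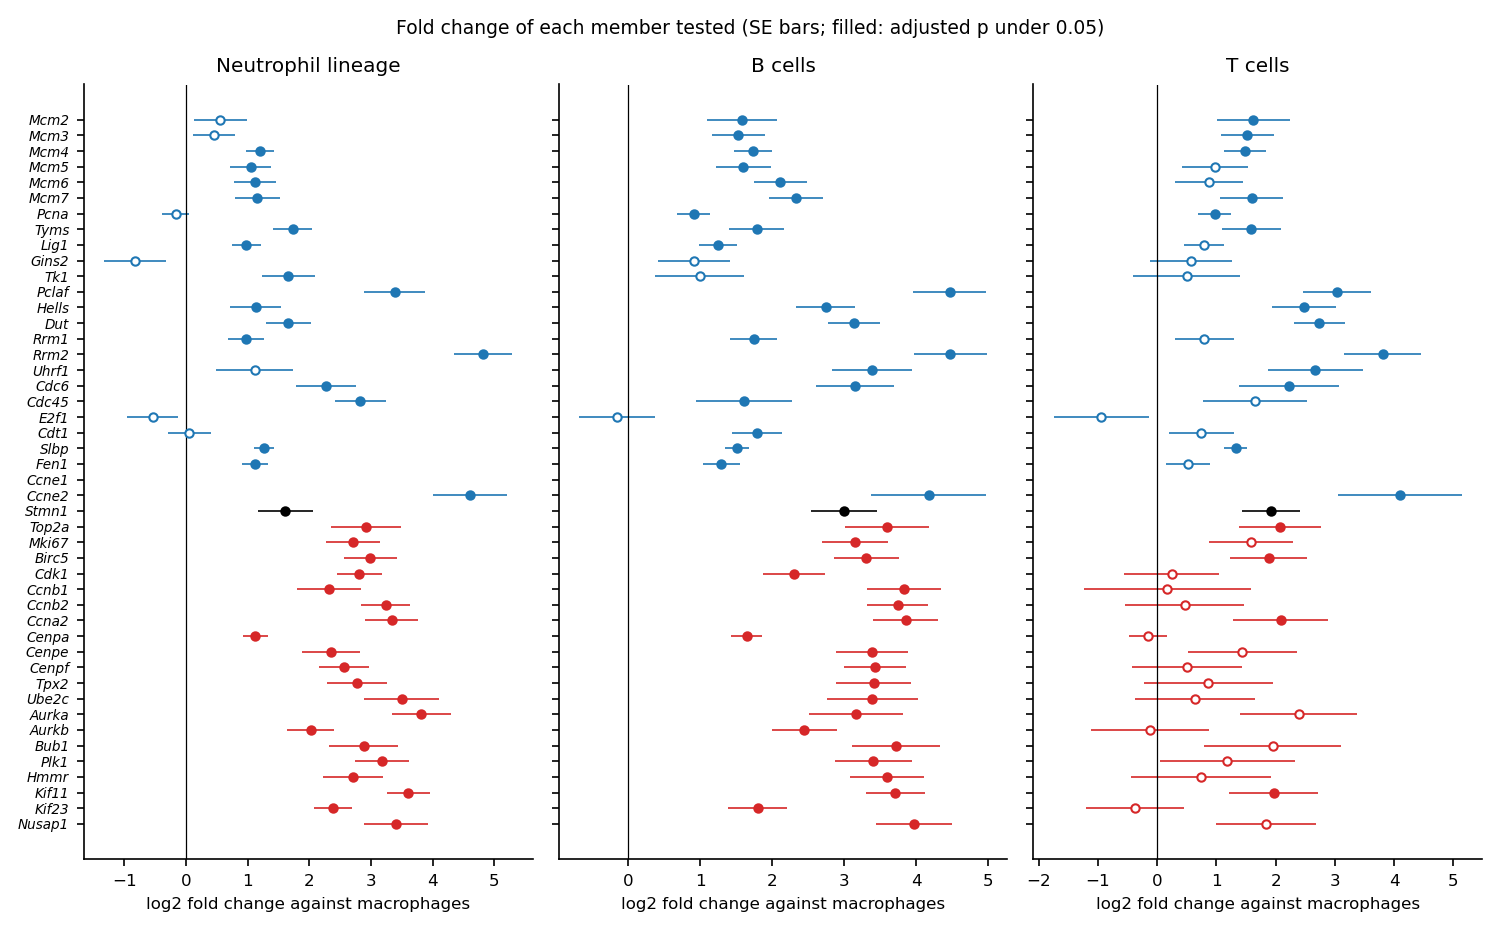
Points give the log2 fold change of each member against macrophages, with bars of 1 SE, in the neutrophil lineage, B cells and T cells, and filled points passed the test. The mitotic genes lie to the right in neutrophil-lineage and B cells, while Pcna, E2f1 and Gins2 lie below 0 with open points in the neutrophil lineage.

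Within the neutrophil lineage, granule-protein-high cells held 11377 UMIs of the 46 genes and the other cells 227. In the other cells 18 of the members had no UMI. Of the 46 members 35 could be tested, and 34 of these were called higher. Since a gene could pass the filter through the granule-protein-high sums alone, the count is a description. Among all 4243 genes tested 29% were called higher and 27.2% lower. Kif23, a motor of the cytokinetic furrow, was tested and not called (0.66 ± 0.38), with 161 and 36 UMIs.

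The S phase genes with over 3 UMIs in the other cells were Slbp, Pcna, Mcm4, Fen1 and Cdc45. Pcna was higher in granule-protein-high cells by 2.05 ± 0.43 and Mcm4 by 2.70 ± 0.50 on the log2 scale, and Top2a and Stmn1 were higher by 5.82 ± 0.52 and 5.50 ± 0.32. Other members rested on 1 to 3 UMIs in those cells, and the ratio of pooled levels is given with its exact counting interval. Rrm2 was 91.6 times as high (25.3 to 758), Pclaf 72.1 times (24.6 to 350), Lig1 73.5 times (13.1 to 2913), Mki67 54.9 times (15.1 to 455), Mcm7 38.0 times (6.71 to 1513) and Mcm5 30.0 times (5.26 to 1195). Mcm2, at 46 and 3 UMIs, was too low to test. For genes without a UMI in the other cells only a bound can be given, taking 3 counts over that group. Ccnb2 was at least 28.6-fold higher, Cenpf 23.5-fold, Ccna2 22.8-fold, Kif11 19.2-fold and Tpx2 18.8-fold, and of the S phase genes Mcm6 at least 12.9-fold, Tk1 12.3-fold and Mcm3 9.99-fold. Slbp was the S phase gene with the smallest called difference (0.97 ± 0.19), and its 87 UMIs were more than those of any other S phase gene in the other neutrophil-lineage cells.

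Precursor-gene-positive B cells held 6838 UMIs of the 46 genes. Other B cells gave sums from mice 1 and 3 only, since mouse 2 had 6 such cells, and these sums held 52 UMIs, with 26 members at 0. The 6 cells that were not summed held a further 49 UMIs, 13 of them from Stmn1, 4 from Pcna and 3 from Top2a, so that the sums fall short of what all other B cells contained. Of 34 members tested 23 were called higher and none lower. Of all 2619 genes tested 5.96% were higher and 6.26% lower, but since a member could pass the filter through the precursor-gene-positive sums alone, its count is a description here too.

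As before, ratios over 1 UMI carry wide counting intervals. Against the sums of mice 1 and 3, Pclaf was 81.3 times as high (14.5 to 3215), Stmn1 112 times (19.97 to 4410), Rrm2 25.6 times (4.55 to 1017), Pcna 12.0 times (2.10 to 479), Mcm6 11.8 times (2.06 to 469) and Mcm3 10.0 times (1.74 to 400). Against all 29 other B cells, an alternative added after seeing the data, the ratio was 10.1 for Stmn1, 3.05 for Pcna, 2.98 for Mcm6 and 3.17 for Mcm3, over 14, 5, 5 and 4 UMIs. With the mouse as a block 5 members lost their call, namely Pcna (log2 fold change 3.28 ± 0.90 and adjusted p = 0.0278 without, 3.28 ± 1.03 and 0.0703 with it), Mcm3, Mcm6, Hells and Uhrf1. Cenpe and Cdk1, which had no UMI in the sums of other B cells, gained a call (edgeR adjusted p = 0.0633 and 0.0676 without the block, 0.00913 for each with it). The proliferation markers had no UMI in the sums of other B cells, so that Top2a was at least 24.0-fold higher, Ube2c 16.5-fold, Nusap1 13.1-fold, Birc5 10.2-fold, Mki67 8.75-fold, Mcm7 4.71-fold, Hells 2.79-fold and Uhrf1 2.67-fold. In all 29 cells Top2a had 3 UMIs, Mcm7 2 and Mki67 1. Mcm4, at 4.13 times (1.10 to 34.8), and Mcm5, at least 2.42-fold higher, did not pass, and Mcm2 was too low to test. Without mouse 1 fewer members were called, in a fit in which other B cells kept 1 sum whose spread is taken from the rest.

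Between macrophages with Fcrls alone and those with Ccr2 alone, 14 of the 46 members were frequent enough to test, and 0 were called by edgeR or by DESeq2, with 1 at an unadjusted p under 0.05 in each. Of all 5808 genes 3.98% were called higher and 5.44% lower in the Fcrls-only cells. Top2a was at 1.45 ± 0.85 (adjusted p = 0.371), Mki67 at 0.68 ± 0.78, Stmn1 at 0.66 ± 0.57, Mcm3 at 0.65 ± 0.40, Mcm4 at 0.23 ± 0.48 and Pcna at 0.10 ± 0.27. With the mouse as a block Top2a (1.64 ± 0.36, adjusted p = 0.00634) and Stmn1 (0.83 ± 0.24, adjusted p = 0.0349) were called higher in Fcrls-only macrophages. In that fit 292 of all 5808 genes were called higher. The Ccr2-only side rests on 156 cells, and the 583 macrophages with both genes entered neither side.

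Other cell cycle genes were counted from lists set by name. Of 19 further replication genes tested, 10 were higher than in macrophages in the neutrophil lineage, 19 in B cells and 10 in T cells. Of 26 further mitotic genes, 26, 25 and 5 were higher, and of 8 replication histone and chromatin genes 8, 8 and 5. Among all genes 32.1%, 24.4% and 16.8% were called higher, and the 5 of 26 mitotic genes in T cells lay near that share. Of 7 genes of G1, namely cyclins, kinases and Myc, 2 were higher and 4 lower in the neutrophil lineage (32.1% and 35.4% of all genes). The counts were 2 and 2 in B cells (24.4% and 31%) and 1 and 1 in T cells (16.8% and 24.9%). With so few genes these shares are not read against those of all genes.

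The D cyclins, which carry growth signals to the cycle, divided by type. Ccnd1 was lower than in macrophages by log2 fold changes of -4.87 ± 0.29 in the neutrophil lineage, -5.69 ± 0.42 in B cells and -5.32 ± 0.51 in T cells. Ccnd3 was higher by 3.55 ± 0.21, 2.81 ± 0.21 and 2.29 ± 0.24. The split held inside the high cells. Ccnd1 stood at 158 CPM in high macrophages and 129 in the others, while the 67 high neutrophil-lineage cells held 3 Ccnd1 UMIs and the high B cells 0. Ccnd3 stood at 87.4 in high macrophages, 368 in high neutrophil-lineage cells and 815 in high B cells, against 41.0, 324 and 196 in the cells of each type that were high for neither list. Ccnd2 stood at 113 in high macrophages against 238 in the others and at 35.2 in high B cells against 131, and 2 of its UMIs lay in high neutrophil-lineage cells. These values within high cells are pooled over mice and were not tested.

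Of 10 genes that hold back the cycle, 3 were higher and 2 lower than in macrophages in the neutrophil lineage, both no larger a share than that of all genes given above. The counts were 5 and 2 in B cells (24.4% and 31% of all genes) and 3 and 2 in T cells (16.8% and 24.9%). In both types the higher calls made up a larger share than among all genes and the lower calls a smaller one, over only 10 genes. Cdkn1a, the inhibitor p21, was lower in all 3, by -2.68 ± 0.20, -4.11 ± 0.26 and -2.49 ± 0.25, and Cdkn2d, the inhibitor p19, was higher, by 3.55 ± 0.18, 2.17 ± 0.20 and 1.66 ± 0.24. Within the neutrophil lineage the antiproliferative gene Btg1 was lower in granule-protein-high cells (-2.32 ± 0.15), as were Btg2, Cdkn1b, Cdkn1a and Ccng2. Cdkn2c, the inhibitor p18, was higher there (3.01 ± 0.51), and in high cells it reached 153 CPM against 15.8 in macrophages, 68.7 against 2.59 in the neutrophil lineage and 155 against 34.5 in B cells.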

How the data were processed

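Per the labels and the study's methods, the authors made the deposited UMI counts with Cell Ranger and Seurat on build mm10, kept cells with over 200 and under 5000 genes and under 5% mitochondrial reads, and assigned cells to mice by hashtag with HTODemux. The submitters' processing notes give no further settings used here. The filtered barcodes were matched to the unfiltered matrix (1 lane, Cell Ranger 3.1.0 in its header), whose hashtag counts were demultiplexed again with HTODemux in Seurat 5.3.0 to name the mouse of each cell. HTODemux set aside 284 doublets between hashtags. Scrublet in scanpy 1.11.5 marked 12 cells (0.45%), too few to call it working, so doublets of 1 mouse may remain. It marked 0 high cells.

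Mice held 4239463 to 13508078 UMIs. UMI counts were summed per mouse and type (at least 10 cells) and tested with edgeR 4.0.16 (TMM, filterByExpr, quasi-likelihood, Benjamini-Hochberg over all genes tested), with DESeq2 1.42.0 as an alternative. The fold changes are log2 and their errors SE. Shares were compared by exact permutation over mice and, as an added alternative, by an exact sign-flip within mice. Intervals are at 95% and a count of 0 is given a limit of 3 counts. The scripts were tested on simulated data. All types came from the same animals, so that mouse numbers pair the sums. The deviations of same-mouse sums from the type means correlated by -0.0278 to 0.204 (median 0.0481 over 17 pairs, 3 over 0.1), and the fit without the mouse as a block was kept. Genes named with values were Pcna, Mcm2 to Mcm7, Stmn1, Top2a and Mki67. In each comparison up to 5 called members of each list with the largest fold that changed the same way in every mouse were also named. To these were added the 3 members of each list with most UMIs in each type, and members called against their list. Others were named after their values were seen. The members and lists were chosen with earlier results of these data known. Promoter sequences are from RefSeq.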

Additional observations from a re-analysis of the deposited data

Results flagged for a closer look

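Signals in cells that entered no comparison of the report were looked at separately. In the 1073 cells with a female hashtag, taken from the unfiltered matrix with the same limits on genes and mitochondrial reads, 0.656% of macrophages were mitotic-gene-high (4 of 610). Of 136 neutrophil-lineage cells 2.94% were S-gene-high and 7.35% mitotic-gene-high, and of 105 B cells 9.52% and 10.5%. None of the 52 T cells was high for either list. By mouse the means were 2.88% ± 0.815 and 6.85% ± 4.32 in the neutrophil lineage and 10.1% ± 4.11 and 11.3% ± 6.25 in B cells (SD, n = 3 mice). In granule-protein-high cells 11 of 77 were high, against 1 of 59 other neutrophil-lineage cells, and in precursor-gene-positive B cells 13 of 81, against 0 of 24 other B cells.

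With these 3 mice added to the 3 others, an alternative chosen after seeing the data, S-gene-high shares were higher than in macrophages in 6 of 6 mice in the neutrophil lineage (4.61% ± 2.17 against 0.900% ± 1.11, exact permutation p = 0.00649, adjusted 0.00974) and in B cells (12.4% ± 4.25, exact permutation p = 0.00216, adjusted 0.00433). Mitotic-gene-high shares gave an exact permutation p = 0.00216 (adjusted 0.00433), the smallest that 6 mice against 6 allow when taken as unpaired, in both types. Both types came from the same mice, and a paired exact sign-flip test gave p = 0.0313 (adjusted 0.0469), the smallest that 6 mice allow, for both types and both lists. T cells did not differ detectably (exact permutation p = 0.455 and 0.619, paired exact sign-flip p = 0.5 and 0.625, higher in 2 of 6 mice).

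Among the cells with a male hashtag that the upper limit on genes removed, 100% of the macrophages (8 of 8) and 81.8% of the cells that met no type rule (9 of 11) were high for a list.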

How the results depend on the processing

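Of 150 recomputed summary values, 139 stayed within the set margin (1.5 times for a count, 1 SD for a share). The margin on counts takes no account of direction. In the neutrophil lineage it passed 3 members called lower with library size, 1 without mouse 1 and 1 without the low-count filter. For macrophages and T cells the margin on shares is wide and seldom fails. The SD was 1.21 around a mean of 1.61% for S-gene-high macrophages and 4.06 around 3.94% for mitotic-gene-high T cells. Without mouse 1 the count fell to 5 in T cells (range 5 to 24 over the 3 mice left out) and to 8 in precursor-gene-positive B cells (8 to 26). The 5 in T cells stood beside 779 of 6841 genes called higher in that fit. Counts ranged from 34 of 42 members tested without mouse 1 to 39 of 46 without mouse 2 in the neutrophil lineage. In these fits 4230 of 6841 and 4790 of 8140 genes were called. B cells ranged from 38 of 42 without mouse 1 to 43 of 45 without mouse 3. There 3281 of 6841 and 2839 of 6683 genes were called. Granule-protein-high cells ranged from 23 of 23 without mouse 3 to 39 of 40 without mouse 2. There 1717 of 3340 and 2228 of 5088 genes were called. With the replicate block the Fcrls-only comparison rose from 0 to 2 of 14 members, both higher, where 292 of 5808 genes were called higher. Without the low-count filter it rose to 6 of 46 members, all higher, where 358 of 14835 genes were called higher. With the block T cells rose from 19 to 23 of 45 members tested, where 1107 of 6676 genes were called higher. Precursor-gene-positive B cells fell from 23 to 20 of 34, where 124 of 2619 genes were called higher. The block moved no other count by over 1.5 times. Lower limits (3 genes, halved share) gave S-gene-high means of 3.42% in macrophages, 10.4% in the neutrophil lineage and 20.1% in B cells. Higher limits (8 genes, 2 times the share) gave 0.460% in macrophages, 1.90% in the neutrophil lineage, 10.96% in B cells and 2.17% in cells of no rule. Mitotic-gene-high cells then made up 6.62% of the neutrophil lineage. The order of macrophage, neutrophil lineage and B cells was kept under both for S phase. Of 1526 values recomputed for called members 1462 kept direction and call, 63 lost the call, 30 of them without mouse 1, and Cdc6 in T cells, whose 8 UMIs all came from mouse 1, reversed to -5.36 without it (range to 3.39). The other causes were not tested. Some settings could move these tallies little. Leaving out the cells Scrublet marked removed 0 high cells and kept 156 of 156 calls. Adding the cells over the upper limit on genes added 0 neutrophil-lineage, B or T cells. The next 2 alternatives were chosen after seeing the data. Cells that met only 1 rule gave 35, 39 and 19 of 41 members tested against macrophages. All of these were higher, beside 1513, 1398 and 1006 of 5393 genes called higher. Library size alone gave 33, 44 and 25 of 45, with 3 of the 33 lower. With library size the split of all calls moved to 3070 of 4387 higher in B cells (1629 of 3701 with TMM) and 2164 of 3252 in T cells (1123 of 2788). T cells and other B cells are limited by their number, 76 and 29.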
